A study of Mus musculus with 59 samples.

Results

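CTCF peaks were followed around Cdkn2a, Cdkn2b, Cdkn1a and Trp53, the genes of the senescence barrier to reprogramming. A peak was a member when it overlapped the mm10 span of one of the 4 genes widened by 50 kb on each side. Peaks of the 15 CTCF lists that overlapped by at least 1 bp were merged into sites, which gave 30 CTCF sites of 102399 in the whole series. The Cdkn2a and Cdkn2b windows overlap on chromosome 4 and held 6 sites together, the Cdkn1a window held 8 and the Trp53 window 16. A SMARCA5 list added 2 sites with no CTCF peak, for 32 sites of 105010. No measured value entered the rule that set the 4 genes, but earlier results of these data were known when they were chosen.

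The series mapped CTCF by chromatin immunoprecipitation and sequencing (ChIP-seq) while mouse fibroblasts were reprogrammed, and in embryonic stem cells (ESCs). Its 59 samples comprise 31 ChIP samples and 28 inputs, and each of 16 groups has 1 deposited peak list. The reprogrammed cells were OG2 mouse embryonic fibroblasts, which carry an Oct4-GFP reporter. They were infected with viruses for OSKM (Oct4, Sox2, Klf4 and c-Myc), either as retroviruses or as a doxycycline-inducible polycistronic lentivirus with rtTA, and were kept in ESC medium with vitamin C. The labels do not say which of the 2 systems each group received. Control cells carried an shRNA against luciferase and knockdown cells an shRNA against Ctcf, in 5 pairs: day 0 cells, Thy1+ cells (days 3 and 9), SSEA1- Thy1- cells (days 6 and 9), SSEA1+ cells (days 6 and 9) and Oct4-GFP+ cells of day 12. Thy1 is a fibroblast surface marker, SSEA1 marks cells on the way to pluripotency and Oct4-GFP those that switched on the reporter. At day 10, 3 groups had OSKM alone, OSKM with added Ctcf, and OSKM with added Ctcf and an shRNA against Smarca5. The ESCs were of the E14Tg2a line, wild type or with Smarca5 knocked out by paired nickases. SMARCA5, the ISWI ATPase that slides nucleosomes, was mapped by streptavidin through an overexpressed Flag-biotin protein in ESC clones that also express the biotin ligase birA, and not at its native level.

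Replicative senescence and p53 signalling limit how many fibroblasts can be reprogrammed. Cdkn2a encodes p16Ink4a and p19Arf from separate promoters and, in a shared exon, different reading frames. Its neighbour Cdkn2b encodes p15Ink4b. The Ink4 proteins inhibit the cyclin D kinases, and p19Arf shields p53 from the ubiquitin ligase Mdm2. Trp53 encodes p53, and Cdkn1a encodes p21, a kinase inhibitor that p53 induces. CTCF, a DNA-binding zinc-finger protein, holds the bases of chromatin loops and insulates domains, and it is known to bind within the INK4/ARF locus.

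Each group had 1 list of intervals 400 bp wide with a score of 0 in every line, so strength of binding could not be compared, replicate spread is unknown for every difference below and no test was made. Lists held between 23600 (day 0, Ctcf shRNA) and 89567 peaks (Smarca5 knockout ESCs), and list length moved with group. Wild-type ESCs, Smarca5 knockout ESCs and day 10 cells with Smarca5 shRNA have 1 ChIP sample each, and the other groups 2 or 3. Neither depth per library, nor the peak threshold, nor the pooling of samples is given in the sources used here. The lists do not measure mRNA, so neither the knockdowns nor the identity of the cells could be checked, and a site missing from a list may be bound below its threshold. Peak positions were grouped into 4 coordinate sets. The sorted and day 12 lists, the day 10 lists and the ESC lists (SMARCA5 included) each share start positions. The day 0 lists were taken as the remaining set, but they shared starts in only 2.43% of their overlapping peaks. The day 0 pair was thus compared on positions not held in common, unlike the other Ctcf shRNA pairs. For the day 3 Thy1+ samples, titles and descriptions disagree on which received Ctcf shRNA. The Thy1+ lists were used as named, and each of the 2 groups also has a day 9 sample whose labels do not conflict. Which day 3 sample entered which list is not known, and this limits every Thy1+ result below.

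Both promoters of Cdkn2a lay under CTCF sites, and their sequences are shown because the sites behaved differently. RefSeq (GRCm38.p6) gives promoter windows from 250 bases before to 50 after a transcription start. The p16 site, chr4:89282065-89282499, covered all 300 bases of the window of the p16 start at position 89282192. The Arf site, chr4:89294543-89294979, covered all 300 bases of the window of the Arf start at 89294619. It also overlapped a promoter window of the predicted gene Gm12610. The p16 and Arf starts are both on the minus strand. The 250 bases upstream of each start follow, from chr4:89282193-89282442 and chr4:89294620-89294869, written 5′ to 3′ on the minus strand. Capitals mark matches to AGNNGGC, a short core within the CTCF motif, searched on both strands.

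p16Ink4a promoter: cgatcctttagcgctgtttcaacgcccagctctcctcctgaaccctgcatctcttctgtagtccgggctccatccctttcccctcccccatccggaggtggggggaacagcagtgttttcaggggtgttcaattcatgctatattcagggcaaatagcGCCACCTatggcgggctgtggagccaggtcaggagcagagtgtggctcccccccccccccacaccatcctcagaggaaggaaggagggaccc

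p19Arf promoter: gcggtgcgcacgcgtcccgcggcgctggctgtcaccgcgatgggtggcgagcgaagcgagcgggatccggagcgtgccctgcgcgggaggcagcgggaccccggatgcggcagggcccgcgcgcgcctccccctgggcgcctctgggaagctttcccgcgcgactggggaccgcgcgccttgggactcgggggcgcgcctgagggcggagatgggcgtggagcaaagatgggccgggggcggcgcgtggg

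The p16 window held 1 match, at bases 159 to 165 on the opposite strand, while the Arf window held 0. A longer form of the motif, CCNNNAGNNGGC, which contains the core, had no match in either. The core is common: 63.9% of the 21263 windows of protein-coding genes held it on either strand, and 78.8% of those with a peak in the wild-type ESC list. The longer form was in 9.88% of windows and in 22.7% of those with such a peak. A missing match says only that these letters are not in the window. The Arf window was 77.0% G and C with 45 CpG dinucleotides, against 60.3% and 12 for the p16 window. The median over all windows was 56.3% G and C.

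At the p16 promoter a CTCF peak was present in 14 of the 15 CTCF lists, from day 0 cells to ESCs, and also in the SMARCA5 list. The exception was the Ctcf shRNA list of day 12, where the nearest peak to the p16 start was centred 28434 bp upstream. At the Arf promoter, 9 CTCF lists had a peak. It was absent from both day 0 lists, present in both Thy1+ lists and in the SSEA1- Thy1- control, absent from both SSEA1+ lists, and present again in the day 12 control, in all 3 day 10 lists and in both ESC lists. The Ctcf shRNA lists of the SSEA1- Thy1- and day 12 cells lacked it where their controls had it. Coding promoter windows with a peak made up 5.47% and 5.09% of all windows in the control and Ctcf shRNA lists of day 0, 15.6% and 10.4% in Thy1+, 8.69% and 6.97% in SSEA1- Thy1-, 7.48% and 6.88% in SSEA1+, and 11.2% and 6.70% in day 12 cells. They made up 12.4%, 17.4% and 16.5% in the OSKM, added Ctcf and Smarca5 shRNA lists, 19.1% in wild-type ESCs, 20.8% in the knockout and 22.9% in the SMARCA5 list. The 9 CTCF lists with the Arf peak thus had peaks at 8.69% to 20.8% of all coding promoter windows, and the 6 without it at 5.09% to 7.48%. The presence of the Arf peak moved with the share of promoters under peaks, whose part in the result was not tested.

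In Cdkn2b a site at chr4:89310380-89310827, 205 bp downstream of the start, was found in all 16 lists. Upstream of Cdkn2b, in the span of the predicted gene Gm12610, 2 more sites were listed. The one at chr4:89353923-89354352, 42891 bp upstream, was in all 7 control lists (the 5 control shRNA lists, OSKM at day 10 and wild-type ESCs) but was missing from the Ctcf shRNA lists of day 0 and day 12. The other, chr4:89351466-89352248, 40434 bp upstream, was in no day 0 list and came and went: it was lost with Ctcf shRNA in SSEA1+ cells and listed only with Ctcf shRNA at day 12. Its peaks start up to 383 bp apart in the different coordinate sets. On the other side, 40832 bp beyond Cdkn2a, the site at chr4:89233125-89233641 was in the Thy1+, SSEA1+ and day 12 control lists and the day 10 lists, and in neither ESC list. It was lost with Ctcf shRNA in Thy1+ and SSEA1+ cells and kept in day 12 cells.

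At Cdkn1a, 2 of the 8 CTCF sites were in all 15 CTCF lists and 2 were in both ESC lists and no earlier one. A site inside the gene, chr17:29095426-29095875, lay 1657 bp downstream of the second of its 2 annotated starts and was found in all 16 lists. So was the site at chr17:29044885-29045296, 1513 bp past Srsf3, a splicing factor gene, and 45683 bp upstream of Cdkn1a. Another upstream site, chr17:29049134-29049559, was missing from 1 CTCF list, that of day 0 cells with Ctcf shRNA. Of the upstream sites, those closest to the first start, chr17:29084042-29084624 and chr17:29085615-29086017 (6355 and 4962 bp upstream), were absent at day 0 and present in every list of the sorted cells. The first of them stayed in all later CTCF lists. The second was in neither the day 12 Ctcf shRNA list nor any day 10 list, was present in wild-type ESCs with SMARCA5, and was the one site of the 4 genes lost in Smarca5 knockout ESCs. Sites at chr17:29057313-29057712 and chr17:29071271-29071670, within Trp53cor1, the lincRNA-p21 gene that p53 induces, were in both ESC CTCF lists and no other CTCF list, and the first also had a SMARCA5 peak. Farther downstream in Rab44, a Rab GTPase gene, 1 site was in the knockout list alone and 1 in the SMARCA5 list alone.

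Around Trp53, the peak nearest to the start was in all 16 lists, at chr11:69579238-69579662. It lay 697 bp upstream of the Trp53 start, inside Wrap53, the neighbour that encodes a telomerase and Cajal body protein, and overlapped the Wrap53 promoter window. Within Trp53 itself, 2 sites were listed. The one at chr11:69589968-69590368 was in the control lists of SSEA1- Thy1-, SSEA1+ and day 12 cells and in both ESC lists, and it was absent from each of the 3 matching Ctcf shRNA lists. The other, chr11:69585965-69586375, was in the day 12 control and both ESC lists. Another site just past the gene, chr11:69593751-69594150, was in 3 Ctcf shRNA lists (Thy1+, SSEA1- Thy1- and SSEA1+), in the SSEA1+ control and in both ESC lists.

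The rest of the Trp53 window holds 7 other coding genes, and most of its sites lie in or beside them. Dnah2, an axonemal dynein gene, held 5 sites. Of these, chr11:69530244-69531132 and chr11:69546679-69547513 hold peaks whose starts differ by up to 489 and 435 bp between lists. Efnb3, an ephrin ligand gene, held 1 site, listed in Thy1+ control cells, both ESC lists and the SMARCA5 list. A second Wrap53 site, chr11:69575213-69575628, was in the 3 day 10 lists and both ESC lists. Atp1b2, a sodium pump subunit gene, held 1 CTCF site (chr11:69599413-69599825) and 1 site of SMARCA5 alone. Shbg, the sex hormone-binding globulin gene, held a site (chr11:69613930-69614355) missing from 1 CTCF list, the day 12 Ctcf shRNA list. Between Sat2, of the spermidine acetyltransferase family, and Fxr2, an RNA-binding protein gene, the site at chr11:69628291-69628705 was in all 16 lists and that at chr11:69629768-69630196 in all but the Ctcf shRNA list of day 0. The Fxr2 promoter site, chr11:69632624-69633035, was in the Thy1+ and day 12 controls, the day 10 lists and the ESC lists.

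**Figure D1:**
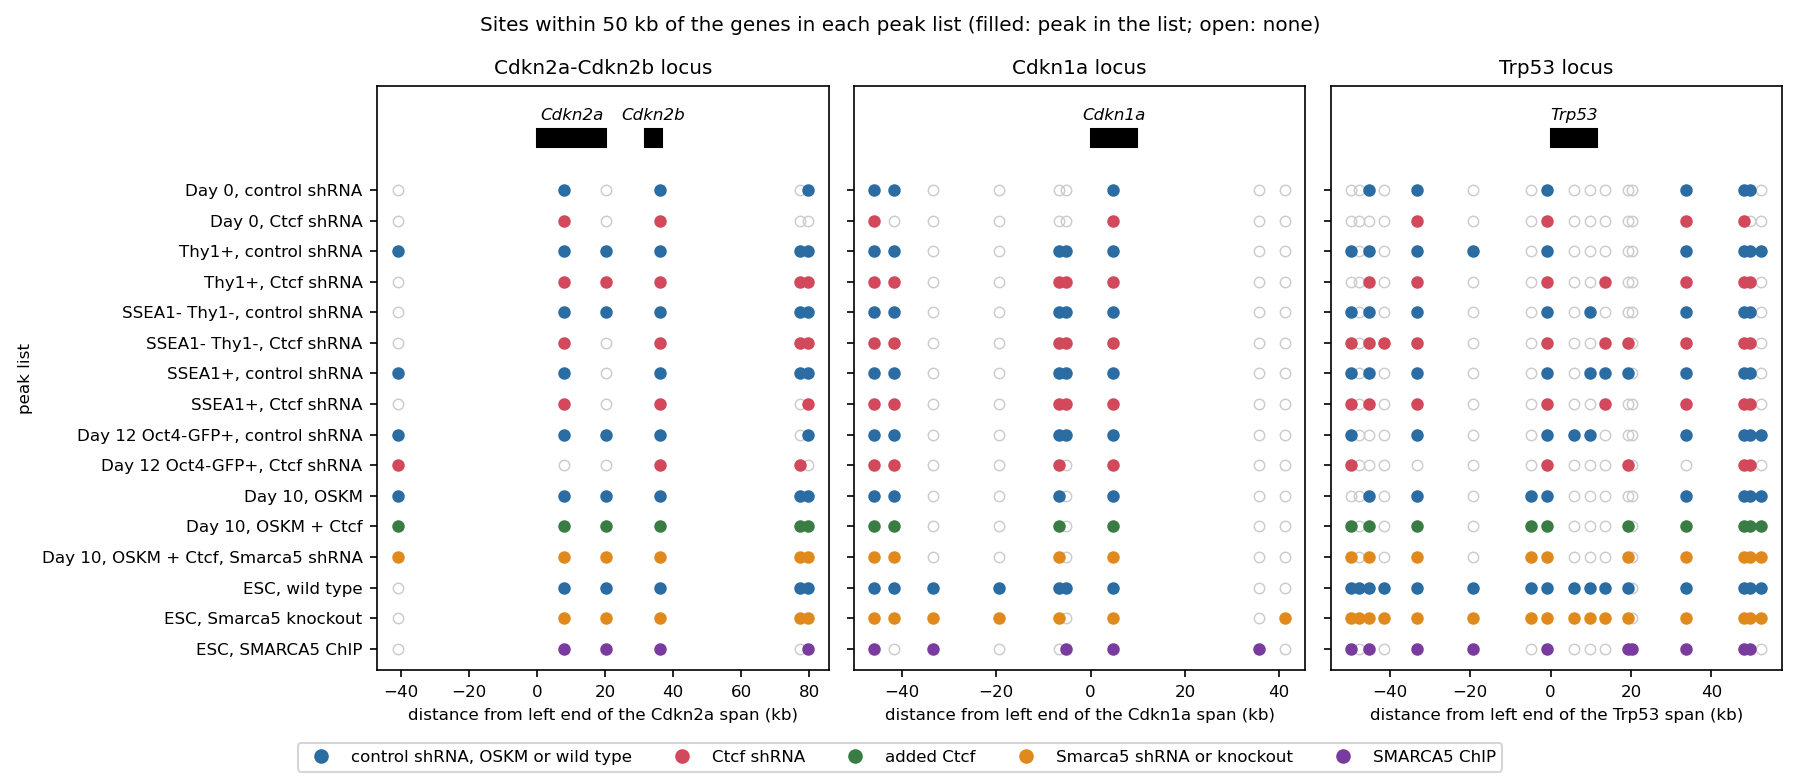
Sites around the 4 genes (x axis, distance of each site's centre from the left end of the gene span, in kb) in each of the 16 peak lists (y axis); filled points are peaks in the list, open points none, and colours give the treatment. The p16 promoter site near 8 kb in the left panel is filled in every list but the day 12 Ctcf shRNA list, and the Trp53 panel is fullest in ESCs with 16 sites.

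Of the 30 CTCF sites, 5 (16.7%, exact 95% interval 5.64% to 34.7%) were in all 15 CTCF lists, as were 16.2% of all sites in the series. These were the Cdkn2b site, the sites inside Cdkn1a and beside Srsf3, the Wrap53 site and the site beyond Sat2. All 7 control lists held 11 sites (36.7%, against 24.3% of all sites). The wild-type ESC list held 28 (93.3%, against 81.2%), and 4 (13.3%, against 23.3%) were in ESC lists alone. No day 0 list held 18 of the 30 (60.0%, against 69.5%). The 2 sites within Trp53 (6.67%, against 8.93%) were the ones listed in day 12 control cells and wild-type ESCs but not in the control cells of day 0 or the Thy1+ sort. Of the 30 sites, 0 were in the day 0 control list and missing from wild-type ESCs, against 1.05% of all sites. Of all day 0 control sites in the series, 96.3% were in wild-type ESCs. Intervals here and below cover counting error only.

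The control lists ask how the sites formed along reprogramming. Day 0 control cells had 12 sites, 3 at Cdkn2a-Cdkn2b, 3 at Cdkn1a and 6 at Trp53. All 12 were also in Thy1+ control cells, where 3.39% of all day 0 peaks were absent. The Thy1+ list had 8 further peaks of 20, and 47.0% of its whole list was likewise missing from day 0. The 12 day 0 sites were all in the SSEA1- Thy1-, SSEA1+, day 10 OSKM and wild-type ESC lists, and 11 were in the day 12 control, where the Dnah2 site at chr11:69534960-69535376 was missing. Thus 11 of 12 were in all 6 later control lists, against 86.2% of all day 0 sites.

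The later control groups were compared in the order of their markers, which is not an order of days for the sorted cells. From Thy1+ to SSEA1- Thy1- control cells 17 of 20 peaks were kept (16.4% of all peaks were absent), and 1 of 18 was new (13.2%). From there to SSEA1+ cells 17 of 18 were kept (8.84% absent over all) and 3 of 20 were new (10.7%). The peak lost was that of the Arf promoter. From SSEA1+ to day 12 cells 16 of 20 were kept (15.4% absent over all) and 3 of 19 were new (17.1%), among them the Arf promoter and the Trp53 site at chr11:69585965-69586375. From day 12 cells to ESCs 18 of 19 were kept (6.18% absent over all) and 10 of 28 were new (40.4%): 7 at Trp53, 2 at Cdkn1a in Trp53cor1 and 1 upstream of Cdkn2b. The peak lost was the site beyond Cdkn2a.

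Each Ctcf shRNA list was compared with its control to ask which sites were lost on knockdown. In day 0 cells 7 of 12 peaks were kept (58.3%, 27.7% to 84.8%) and 5 were absent, against 26.7% of all day 0 peaks absent. The peaks absent were the far upstream sites of Cdkn2b and Cdkn1a (42891 and 41420 bp), 2 in Dnah2 and the one before Fxr2. For 1 of the Dnah2 sites, at chr11:69546679-69547513, both day 0 lists have a peak, but the peaks do not overlap, so it counts as absent and as the 1 new peak of 8 (10.4% over all). Within 10 kb of the genes all 4 day 0 peaks were kept, as were 7 of 7 in Thy1+ cells. The other pairs lost peaks in that window. It kept 6 of 8 in SSEA1- Thy1- cells (75.0%), 7 of 9 in SSEA1+ cells (77.8%) and 4 of 9 at day 12 (44.4%). Within 50 kb, Thy1+ cells kept 16 of 20 (80.0%, 56.3% to 94.3%), where 18.9% of all peaks were absent, and 1 of 17 was new (5.50%). In SSEA1- Thy1- cells 16 of 18 were kept (88.9%, 65.3% to 98.6%), where 18.0% of all were absent. The absent ones were the Arf promoter and the Trp53 site at chr11:69589968-69590368, and 3 of 19 were new (5.73%), all near Trp53. In SSEA1+ cells 16 of 20 were kept (80.0%, 56.3% to 94.3%), where 18.0% of all were absent, and 0 of 16 were new (4.51%). All 5 Cdkn1a peaks were kept in each of these 3 pairs.

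The day 12 pair kept the lowest share of the 5. Of 19 control peaks, 10 were kept (52.6%, 28.9% to 75.6%) and 9 were absent, where 41.4% of the whole control list was absent. At Cdkn2a-Cdkn2b 2 of 5 were kept, and those absent were both Cdkn2a promoters and the site 42891 bp upstream of Cdkn2b. At Trp53 4 of 9 were kept and both sites within the gene were absent, while at Cdkn1a 4 of 5 were kept. New with Ctcf shRNA were 2 of 12 peaks (13.4% over all), the one 40434 bp upstream of Cdkn2b and that in Atp1b2. By merged site, the p16 promoter, the Shbg site and 1 Dnah2 site were in the other 14 CTCF lists and missing from this one. The Dnah2 site, chr11:69546679-69547513, counts here as present in both day 0 lists, though their peaks do not overlap. The sites were 3 of the 8 with a peak in all of those 14 lists. Over the whole series 16.2% of such sites were missing from the day 12 Ctcf shRNA list. This list was the shortest of the sorted and day 12 lists, with 35803 peaks. By the same count, the day 0 Ctcf shRNA list lacked 2 of the 7 sites in its other 14 lists, against 15.2% over the series. Those were the site 41420 bp upstream of Cdkn1a and the one before Fxr2.

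Kept shares were also set against peaks of equal recurrence, where 1 control list stood for each coordinate set: day 0, OSKM at day 10, SSEA1- Thy1- and wild-type ESCs. Recurrence was the number of these lists, 0 to 3, that hold the peak, leaving out the one of the peak's own set. From peaks of equal recurrence in the same lists, the kept share near the 4 genes would be 75.0% at day 0, 85.1% in Thy1+, 87.4% in SSEA1- Thy1-, 83.9% in SSEA1+ and 62.2% in day 12 cells. The measured shares lay under these values in 4 pairs and above in 1, SSEA1- Thy1-, and all 5 values lay inside the counting intervals. Over the 5 pairs, counted by merged site and not by overlap of peaks, 25 sites were in at least 1 of the 10 lists. Of these, 17 were lost in 1 or more pairs (68.0%, against 56.3% of all such sites), and 7 were kept wherever the control had them (28.0%, against 38.3%).

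**Figure D2:**
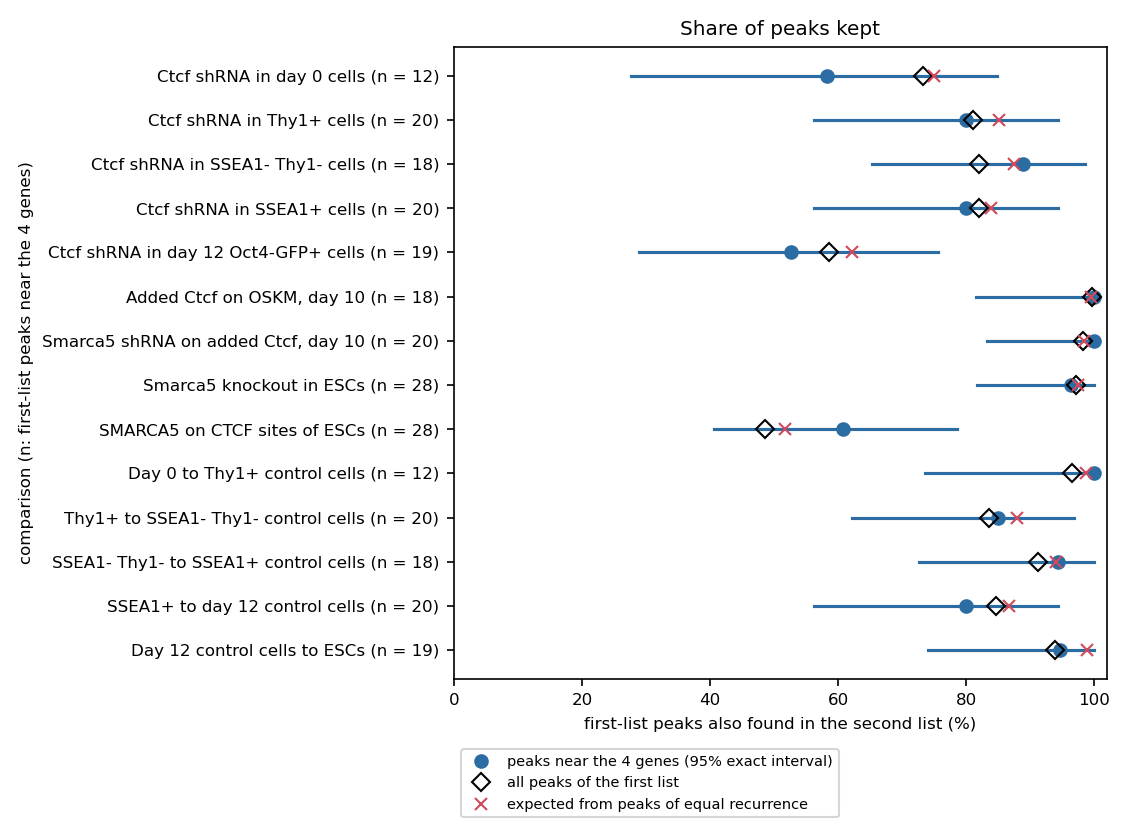
Share of first-list peaks near the 4 genes that the second list also holds (x axis, percent; blue points with exact 95% intervals), for the 14 comparisons (y axis), with all peaks of the first list (diamonds) and the share given by peaks of equal recurrence (crosses). The lowest blue points are day 12 with Ctcf shRNA at 52.6% and day 0 with Ctcf shRNA at 58.3%, and the diamonds lie inside the blue interval in every comparison.

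Added Ctcf at day 10 was set against OSKM alone. All 18 OSKM peaks were kept (81.5% to 100%), and 0.330% of the whole OSKM list was absent. New with added Ctcf were 2 of 20 peaks (17.3% over all), both near Trp53: the far Dnah2 site and the Atp1b2 site. The Smarca5 shRNA on top of added Ctcf kept all 20 peaks (83.2% to 100%) and added 0, where 1.72% of all peaks were absent and 0.542% were new. The 3 lists have common start positions, whose part in these overlaps was not tested.

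Smarca5 knockout was compared with wild-type ESCs, with 1 ChIP sample in each group. The knockout kept 27 of 28 peaks (96.4%, 81.7% to 99.9%), where 2.88% of all were absent, and had 1 new peak of 28 (9.81%). The absent peak was the one 4962 bp upstream of Cdkn1a and the new peak was in Rab44. All 5 peaks at Cdkn2a-Cdkn2b and all 16 at Trp53 were kept.

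SMARCA5 peaks covered 17 of the 28 wild-type ESC CTCF sites (60.7%, 40.6% to 78.5%), leaving 11 without, where 51.4% of all CTCF peaks had none. Peaks of equal recurrence would give 51.7% covered, inside the interval. Over the whole lists, 100% of the 40418 overlapping peaks had the same start in both. The part of these common positions in the overlap was not tested. By locus SMARCA5 was on 4 of 5 sites at Cdkn2a-Cdkn2b, both Cdkn2a promoters and the Cdkn2b site among them, on 4 of 7 at Cdkn1a and on 9 of 16 at Trp53. It was on all 5 sites found in all 15 CTCF lists, as on 72.3% of such sites in the series, and on 12 of the other 23 (42.7%). Neither site within Trp53 had SMARCA5. Of the 19 SMARCA5 peaks near the 4 genes, 2 had no CTCF peak of wild-type ESCs (13.9% over all).

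Peaks were denser around Trp53 than around the other genes. Its window held 5.38 peaks per 100 kb in day 0 control cells and 14.3 in wild-type ESCs, where the medians over 21887 coding genes were 1.88 and 5.70. It lay above the upper quartile of coding genes in all 16 lists. The Cdkn2a window held 1.66 to 3.33 peaks per 100 kb, and in wild-type ESCs its 2.50 was under the lower quartile of 2.65. In control cells it went from 1.66 at day 0 to 3.33 in Thy1+ cells, while the median went from 1.88 to 3.71. At day 12 it was 3.33 (4 peaks) beside a median of 3.65, and in wild-type ESCs it had 3 peaks while the median was 5.70. In ESCs Cdkn2b, at 4.77, and Cdkn1a, at 6.38, lay between the quartiles.

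**Figure D3:**
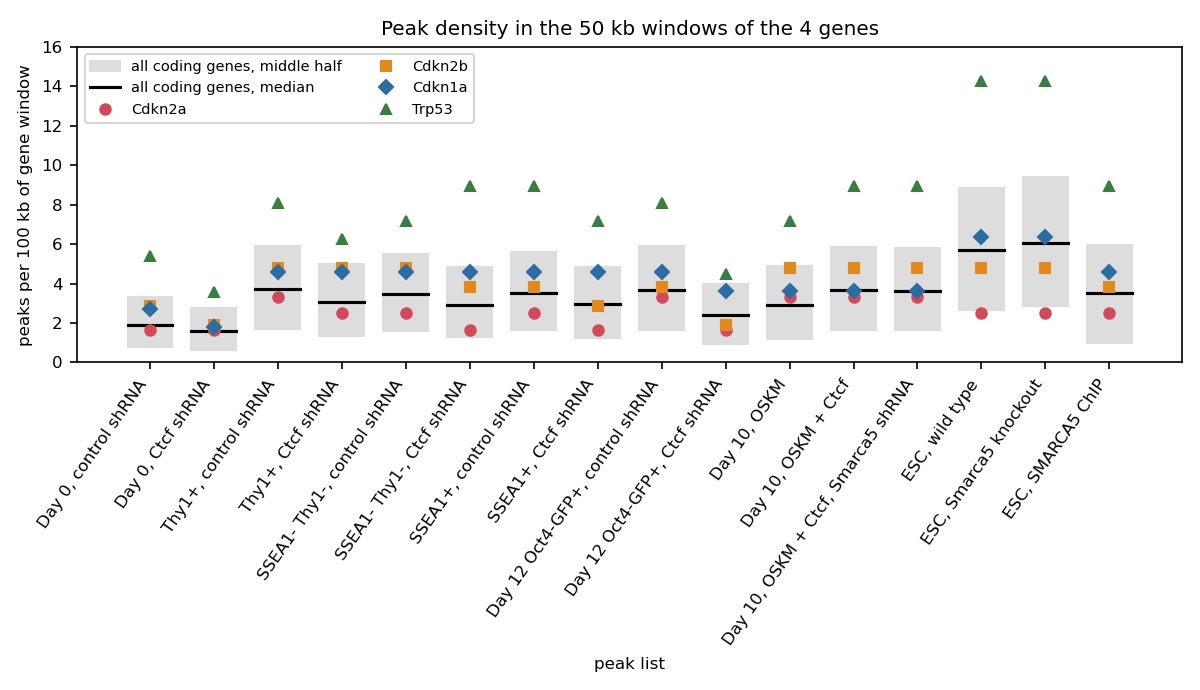
CTCF (and, in the last column, SMARCA5) peaks per 100 kb of each gene's window (y axis) in the 16 lists (x axis); grey boxes run from the lower to the upper quartile of 21887 coding genes and black lines their median. Trp53 reaches 14.3 in wild-type ESCs, above the box, and Cdkn2a sits at 2.50 there, below it.

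Other genes of the pathway were taken from 6 lists with 63 genes, near which 773 CTCF sites lay. Peaks within 50 kb of them were counted in the same pairs. With Ctcf shRNA 166 of 222 peaks were kept at day 0 (74.8%), where 73.3% of the whole list was kept. The counts were 347 of 435 in Thy1+ (79.8%, whole list 81.1%), 319 of 394 in SSEA1- Thy1- (81.0%, whole list 82.0%) and 317 of 390 in SSEA1+ cells (81.3%, whole list 82.0%). At day 12, 247 of 422 were kept (58.5%, whole list 58.6%). The other INK4 and CIP/KIP inhibitors (Cdkn1b, Cdkn1c, Cdkn2c and Cdkn2d) kept 17 of 22 at day 12 (77.3%), and the 14 cyclin, CDK, RB and E2F genes kept 63 of 126 (50.0%). The 10 p53 regulators kept 44 of 75 (58.7%), the 12 p53 targets 43 of 64 (67.2%), the 15 regulators of the Cdkn2a locus 63 of 109 (57.8%) and the 8 senescence secretory genes 19 of 32 (59.4%).

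Bmi1, a Polycomb gene whose product represses Cdkn2a, lost all its peaks with Ctcf shRNA in 3 pairs: 3 to 0 in Thy1+, 3 to 0 in SSEA1- Thy1- and 2 to 0 in day 12 cells. In each of these pairs it was 1 of 62 listed genes with control peaks. Of all coding genes with peaks, 1.73%, 2.11% and 6.89% kept none. In SSEA1+ cells Bmi1 went from 3 to 1 peaks, and no listed gene kept none (2.08% over all). At day 0 Bmi1 went from 0 to 1 peak, as did the checkpoint kinase gene Chek1 and the p53 target Gadd45a. These were 3 of 5 listed genes with no control peak, and 6.90% of such coding genes gained one. Also at day 0 Chek2, another checkpoint kinase gene, went from 1 to 0 and Hmga2, a chromatin protein gene, from 2 to 0. These were 2 of 58 listed genes with control peaks, where 5.75% of all such genes kept none. From day 0 to Thy1+ control cells, Chek1 went from 0 to 4 peaks and Bmi1 from 0 to 3. The Polycomb methyltransferase gene Ezh2 went from 0 to 2 and Gadd45a from 0 to 1. Thus 4 of 5 listed genes without a day 0 control peak gained at least 1, as did 31.7% of such coding genes.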

How the data were processed

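CTCF ChIP-seq peak lists of 15 groups and a SMARCA5 list were analysed; the 28 input samples were not used here. MACS2, HOMER, Bowtie2, Trim Galore, FastQC, deepTools, SAMtools, bedtools and Picard are named in the submitters' processing notes, with mm10 (GRCm38) as the build. Neither versions nor thresholds nor pooling is given in the sources used here. The score in the authors' deposited files is 0 in all lines, so peaks could not be ranked. Samples were grouped by title.

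Gene spans and promoter windows came from RefSeq (GRCm38.p6); exons, introns and a genome were not used here. A first-list peak was kept when it overlapped a second-list peak by at least 1 bp, and shares carry exact (Clopper-Pearson) 95% intervals. No statistical test was run, as each group had 1 list. The share computation was tested on simulated lists. The members and gene lists were chosen with earlier results of these data known. Named genes were the 4 members and any gene holding or nearest to a member site. For each gene list and comparison, in list order, up to 3 genes that kept no peak and up to 3 that gained from none were added. Alternatives were windows of 10 and 100 kb, a reciprocal overlap of 50%, merging of peaks up to 400 bp apart, sites in at least 2 lists, and leaving out each locus. Scripts ran under Python 3.11.15 with SciPy 1.17.1, NumPy 2.4.6 and matplotlib 3.10.9.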

Additional observations from a re-analysis of the deposited data

Results flagged for a closer look

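Among the 5 Ctcf shRNA pairs, 2 sites were lost in some and gained in others. The site 40434 bp upstream of Cdkn2b was lost in 1 pair (SSEA1+) and gained in 1 (day 12). The Atp1b2 site beside Trp53 was lost in 1 pair (SSEA1+) and gained in 2 (SSEA1- Thy1- and day 12). They were flagged because the pairs moved in opposite directions, and the difference was not tested. Of all sites in these lists, 8.15% were both lost and gained.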

How the results depend on the processing

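The number of CTCF sites near the 4 genes was 30, and it was 12 within 10 kb and 62 within 100 kb. Of 84 alternative values of the kept shares, 77 stayed within the counting interval of the main value. These intervals are wide and the alternatives share peaks with the main value, so the count does not measure stability. The other 7 all rose to 100%. In the 10 kb window these were day 0 Ctcf shRNA (4 of 4 peaks), Thy1+ Ctcf shRNA (7 of 7), Thy1+ to SSEA1- Thy1- (7 of 7), and day 12 to ESCs (9 of 9). Without the Cdkn2a-Cdkn2b locus they were SSEA1- Thy1- to SSEA1+ (13 of 13) and day 12 to ESCs (14 of 14), and without Cdkn1a the Smarca5 knockout (21 of 21). In these cases the locus left out held the only absent peak, so a rise to 100% was fixed in advance. Each of the 7 values rests on fewer peaks. The remaining Ctcf shRNA pairs kept lower shares within 10 kb than within 50 kb. Those shares were 75.0% in SSEA1- Thy1- cells (6 of 8), 77.8% in SSEA1+ cells (7 of 9) and 44.4% at day 12 (4 of 9). No paired analysis was possible because each group had 1 list and no result came from a test, and replicates could not be left out for the same reason. Peaks carry no strength, so a stricter threshold could not be tried, and partial loss of binding is not visible.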
